A study of Mus musculus with 2 samples.

Results

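The constitutive proteasome subunits were followed through the cell classes of MC38 tumours of mice given DFMO or water. All gene symbols of the deposited table that begin with Psma, Psmb, Psmc or Psmd were taken. The interferon-inducible subunits Psmb8, Psmb9 and Psmb10 and names that mark pseudogenes were left out. The rule found 36 of 17775 genes. They comprise 7 alpha and 7 beta subunits of the 20S core, 6 ATPases and 11 non-ATPase subunits of the 19S cap, 3 chaperones that help build the cap (Psmd5, Psmd9 and Psmd10), Psma8 (the alpha subunit of testis) and Psmc3ip. Psmc3ip is not a subunit: it is a recombination factor that binds Psmc3, and it fell under the rule by its name alone.

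The proteasome breaks down proteins that carry ubiquitin chains. Its 20S core is a barrel of stacked rings in which outer alpha subunits gate the entry and inner beta subunits hold the cutting sites, while the 19S cap binds ubiquitin, unfolds the substrate with its ATPase ring and feeds it into the barrel. Lymphocytes and cells that have met interferon also make Psmb8, Psmb9 and Psmb10, which take the places of Psmb5, Psmb6 and Psmb7 and alter the peptides left for MHC class I. Ornithine decarboxylase, the enzyme that DFMO blocks, is itself a proteasome substrate that antizyme delivers without ubiquitin.

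The mice were C57BL/6 and carried tumours grown from MC38, a mouse colon carcinoma line, placed in the back. In the DFMO group, difluoromethylornithine was given by gavage from day 7 for 14 days, against water by the same route and over the same days in the water group; the labels differ on how often per day. Tumours were digested, immune cells were enriched over Ficoll, and the cells of 4 mice per group were pooled into 1 library of 5' single-cell RNA sequencing. With 1 library per group there was no replicate, so no p-value is given, and every interval below is a 95% interval for counting error only, which covers neither mice nor library preparation.

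After filtering, 4421 cells of the DFMO library and 6150 cells of the water library were kept, with a median of 2208 unique molecular identifiers (UMIs) per DFMO cell and 6334.5 per water cell. The libraries shared 37 cell barcodes. No mitochondrial and no ribosomal protein gene was in the table, so levels (CPM, a gene's UMIs per 1000000 UMIs of its class and library) are relative to the remaining genes. Clusters were named by marker genes, and 6 classes had at least 100 cells in each library: CD8 T-like (739 cells in DFMO, 549 in water), NK-like (207 and 358), Treg-like (regulatory T cells; 176 and 198), other T-like (158 and 371), monocyte/macrophage-like (188 and 1223) and a class low in the leukocyte gene Ptprc (591 and 2105). The Ptprc-low class had 0.9 to 2.1 CPM of Ptprc, although the labels call all cells immune, and is given by that gene alone. These classes are disjoint cells of the same pair of libraries, so a direction shared by all of them is not a repeat of the experiment. RNA of B cell markers was higher in the DFMO library in each of these 6 classes: 6 such genes summed to 51.2 CPM in DFMO and 3.68 CPM in water in CD8 T-like cells, and to 120 and 25.3 CPM in Treg-like cells, against 14247 and 14014 CPM in B-like cells. The sums were 72.4 and 9.73 CPM in NK-like, 21.0 and 1.42 CPM in Ptprc-low, 62.5 and 42.6 CPM in monocyte/macrophage-like and 63.4 and 14.8 CPM in other T-like cells, with 0 to 2 of the 6 genes at 0 in DFMO (Pax5 among them) and 0 to 5 in water (Pax5 and Fcmr most often, but never Cd79b). The part of this RNA and of the depth gap in the ratios below was not tested.

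Every cell class expressed the constitutive proteasome, and its summed level ranged from 5451 to 8564 CPM over the classes of the DFMO library and from 5700 to 9404 CPM over those of the water library. The 36 genes together were highest in Ptprc-low cells, with 8564 CPM in DFMO and 9404 CPM in water. B-like cells were lowest, with 5451 CPM in DFMO and 5700 CPM in the 57 water cells. In DFMO, CD8 T-like (7741 CPM), other T-like (7665 CPM), NK-like (7648 CPM), fibroblast-like (7576 CPM) and Treg-like cells (7574 CPM) followed one another with overlapping intervals. Below them stood monocyte/macrophage-like (6371 CPM) and CD4 T-like cells (6333 CPM), which also overlapped. In water, conventional dendritic cell-like (8718 CPM) and CD8 T-like cells (8572 CPM) overlapped, as did NK-like (8254 CPM), Treg-like (8247 CPM) and other T-like cells (8019 CPM). Fibroblast-like cells stood at 7709 CPM, clear of their neighbours, and migratory dendritic cell-like (7221 CPM) and monocyte/macrophage-like cells (6965 CPM) overlapped. Median depth per cell ranged over these classes as well, 18392 UMIs in Ptprc-low and 1765.5 in B-like cells of the DFMO library. With every cell thinned to 1000 UMIs, a Ptprc-low cell held on average 8.55 member UMIs in DFMO and 9.08 in water, and a B-like cell of DFMO held 5.29.

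**Figure D1:**
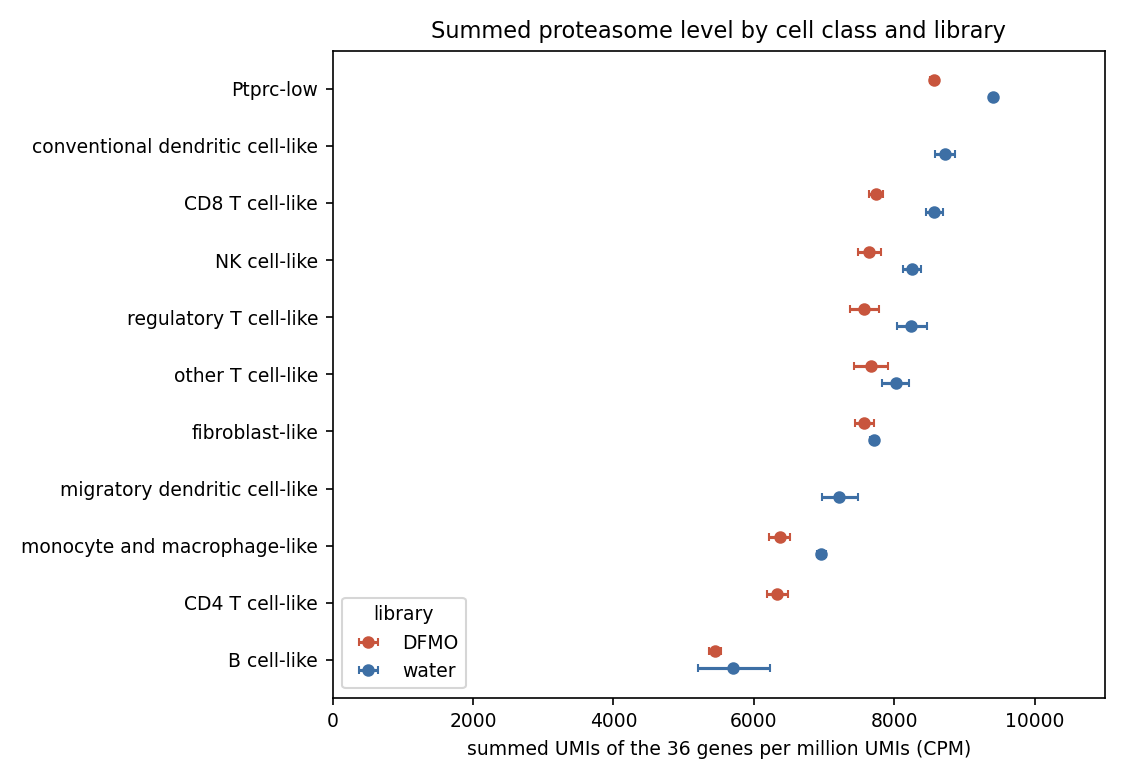
Summed level of the 36 genes in CPM (horizontal axis) in each cell class with at least 50 cells in a library, DFMO and water drawn as separate points with 95% counting intervals. Ptprc-low cells are highest in both libraries at 8564 and 9404 CPM, and B-like cells are lowest at 5451 and 5700 CPM.

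Within the classes the level differed between clusters. Among Ptprc-low cells, the cluster led by the hypoxia genes Car9 and Ndrg1 had 7118 CPM in DFMO and 7670 CPM in water, against 9059 and 9840 CPM in the dividing cluster and 9665 and 10367 CPM in a further cluster. Among CD8 T-like cells, the cycling cluster had 9154 CPM in DFMO and 8989 CPM in water, the cluster with Gzmf, Pdcd1 and Lag3 had 7479 and 8375 CPM, and the cluster with genes of naive T cells had 6979 and 7360 CPM. The monocyte/macrophage-like cluster with C1q genes and Mmp12 was low at 5387 CPM in DFMO, against 6194 CPM in water. The clusters were formed from the same counts, so their order is a description.

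Some members were far more even over the classes than others. In DFMO, Psma3 (an alpha subunit) was the most even, between 344 CPM in B-like and 505 CPM in other T-like cells, and the ATPase Psmc4 lay between 110 CPM in monocyte/macrophage-like and 170 CPM in other T-like cells, followed by the ATPase Psmc2 with a range of 0.67 on the log2 scale. In water the most even were Psmd8 (log2 range 0.55), Psmc4 (0.63) and Psmb1 (0.64), with the widest ranges in Psmc3ip (3.19), the chaperone Psmd9 (2.47) and Psmd13 (2.07). The low ends of these rested on 7 UMIs for Psmd9 (migratory dendritic cell-like) and 4 for Psmd13 (B-like). In DFMO the widest were Psmc3ip (4.19, with a low end of 2 UMIs), the chaperone Psmd5 (1.69, with 20) and the deubiquitinase partner Psmd7 (1.54), so the widest ranges are in part counting error. Psmd7 had 273 CPM in Ptprc-low and 93.7 CPM in B-like cells. In water it had 321 CPM in Ptprc-low and 104 CPM in B-like cells, of which the B-like value rested on 9 UMIs. Psmd8, a lid subunit, had 409 CPM in DFMO and 387 CPM in water in monocyte/macrophage-like cells, and 221 and 265 CPM in NK-like cells. The alpha subunits made up 52.3% of all 20S UMIs in monocyte/macrophage-like cells of DFMO and 49.1% in water, but 44.4% and 43.8% in Ptprc-low cells, so that the balance within the core differed between these classes by more than it did between the libraries.

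The comparison of DFMO with water asks whether proteasome expression differed under the inhibitor. Summed over the 36 genes, the level was a little lower in DFMO in each of the 6 classes, the beta subunits of the 20S core included. The sum was 7741 CPM in DFMO and 8572 CPM in water in CD8 T-like cells (log2 ratio -0.15, interval -0.17 to -0.12), 7648 and 8254 CPM in NK-like cells (-0.11, -0.15 to -0.07) and 8564 and 9404 CPM in Ptprc-low cells (-0.14, -0.15 to -0.12). Monocyte/macrophage-like cells had 6371 CPM in DFMO and 6965 CPM in water (-0.13, -0.17 to -0.09), Treg-like cells 7574 and 8247 CPM (-0.12, -0.18 to -0.07) and other T-like cells 7665 and 8019 CPM (-0.07, -0.12 to -0.01). All of these differences were small, and the 6 intervals lay below 0. Other T-like cells did not keep the direction in all alternatives: the ratio was 0.03 with coarser clusters and -0.19 with cells thinned to 1000 UMIs. The Treg-like ratio was -0.01 with at least 500 genes per cell, -0.02 with doublets kept and -0.03 when each cell weighed alike. Without the cluster of naive genes, which held 451 of the 739 CD8 T-like cells in DFMO and 44 of 549 in water, where the Gzmf, Pdcd1 and Lag3 cluster held 376, the CD8 ratio was -0.07. The CD8 T-like ratios of single genes below are of the whole class, so this unlike makeup enters them too. Fibroblast-like cells, with 97 cells in DFMO, had 7576 CPM in DFMO and 7709 CPM in water (-0.03, -0.05 to 0.00).

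Counted gene by gene, members measured with at least 30 UMIs were lower in DFMO in 27 of 35 cases in CD8 T-like cells, where 43.1% of 9043 genes were lower, and in 27 of 35 in Ptprc-low cells, where 42.3% of 11783 genes were. They were lower in 21 of 35 in NK-like (45.5% of genes), 23 of 34 in monocyte/macrophage-like (45.8%) and 24 of 35 in Treg-like cells (41.2%). Other T-like cells were the exception, with 15 of 35 lower (42.6% of genes). Among genes of at least 100 CPM the shares were higher. They were 61.9% in Ptprc-low (24 of 30 members lower) and 55.4% in CD8 T-like cells (24 of 30). NK-like cells had 52.3% (19 of 28) and monocyte/macrophage-like cells 48.2% (18 of 23). Treg-like cells had 47.7% (23 of 29) and other T-like cells 46.6% (13 of 29). From 500 to 1000 coding bases, 77.7% of such genes and 16 of 16 members were lower in Ptprc-low cells. In CD8 T-like cells it was 61.5% and 15 of 16. The members' median log2 ratio was -0.11 in CD8 T-like, -0.05 in NK-like, -0.13 in Ptprc-low, -0.10 in monocyte/macrophage-like, -0.12 in Treg-like and 0.07 in other T-like cells, where the median of all genes was 0.07, 0.04, 0.05, 0.04, 0.10 and 0.07. TMM library sizes lowered every ratio by 0.12 in other T-like and 0.10 in Treg-like cells and by less in the other classes.

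Few members differed by 1.5-fold. In CD8 T-like cells 1 member was at least 1.5-fold lower in DFMO and 0 were higher, where 7.39% of genes were lower and 13.7% higher by that much. In NK-like cells it was 0 in either direction (5.67% of genes lower, 7.49% higher), as in Ptprc-low cells (2.76% and 4.75%) and in monocyte/macrophage-like cells (8.18% and 7.58%). In other T-like cells 3 members were higher and 0 lower (10.7% of genes higher, 6.09% lower), and in Treg-like cells 2 were higher and 0 lower (15.0% and 7.80%). Over all kept cells, which differ in their makeup between the libraries, the sum was 7717 CPM in DFMO and 8735 CPM in water, and 0 members passed in either direction (17.5% of genes higher, 10.0% lower). The members passed this threshold no more often than all genes of at least 30 UMIs did. Genes with few UMIs differ more by counting error, and no share was taken among genes of like level.

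**Figure D2:**
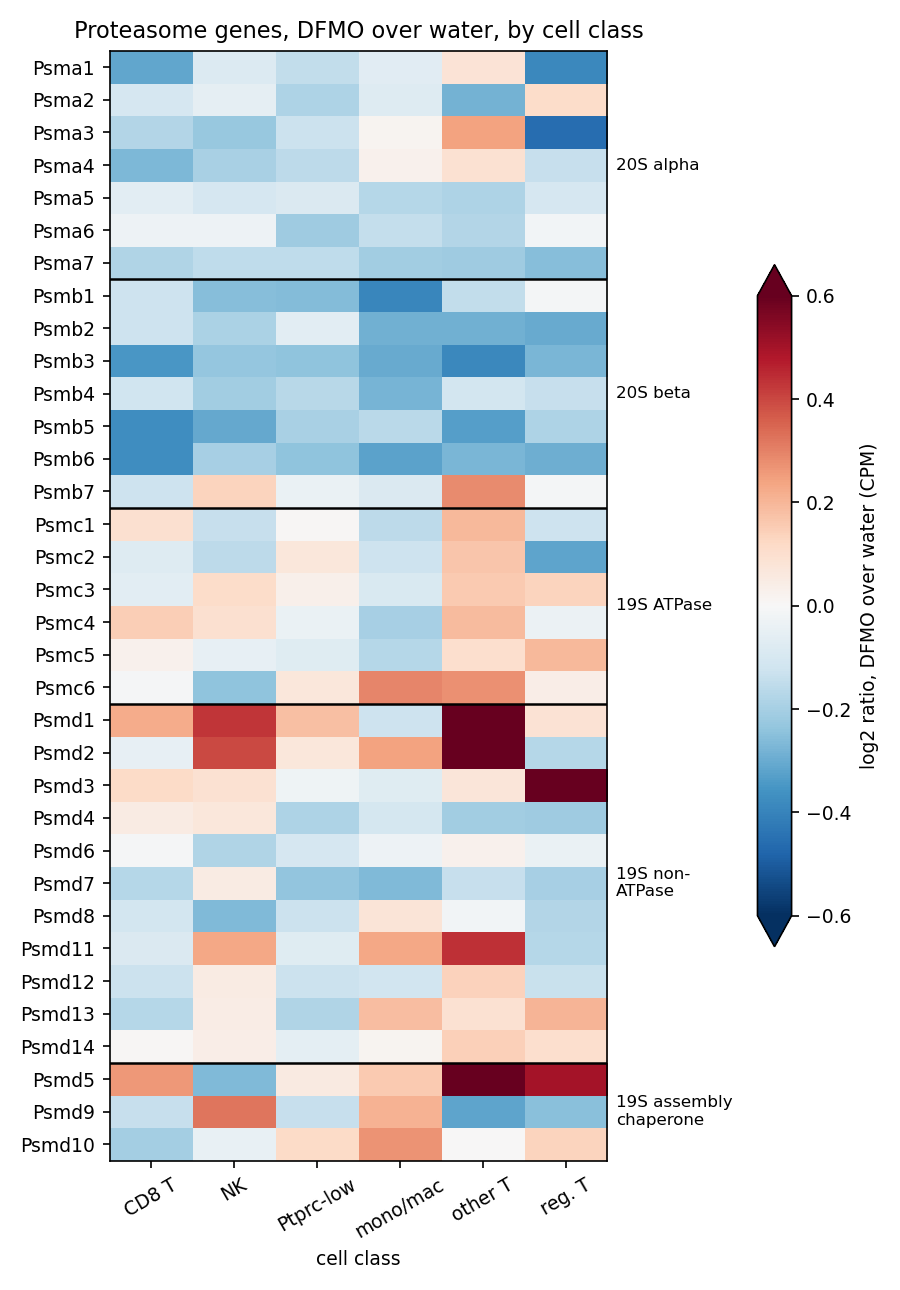
Log2 ratio of DFMO over water for each of 34 members (rows, grouped by role) in the 6 classes (columns), on a colour scale centred on 0. The beta rows are below 0 in nearly every column, whereas the 19S rows are mixed and the highest ratio, Psmd1 at 1.14, is in the other T-like column.

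The beta subunits, which line the inner rings, were lower in DFMO in each of the 6 classes. Together they had 2660 CPM in DFMO and 3144 CPM in water in CD8 T-like cells (log2 ratio -0.24, -0.29 to -0.20), 2635 and 3063 CPM in NK-like cells (-0.22, -0.28 to -0.15) and 3106 and 3533 CPM in Ptprc-low cells (-0.19, -0.20 to -0.17). Monocyte/macrophage-like cells had 2008 CPM in DFMO and 2443 CPM in water (-0.28, -0.35 to -0.22), other T-like cells 2553 and 3027 CPM (-0.25, -0.34 to -0.15), and Treg-like cells 2452 and 2788 CPM (-0.19, -0.28 to -0.09). All 6 intervals lay below 0. The ratio of the sum stayed below 0 under every alternative choice of cells, clusters and library size, between -0.38 and -0.06 over the 6 classes. In fibroblast-like cells the beta ratio was -0.05 (-0.10 to 0.00). Less the median of all genes of like coding length, the median beta subunit was between -0.26 (other T-like) and -0.03 (CD8 T-like) over the 6 classes. It was 0.07 in fibroblast-like cells.

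Of the 7 beta subunits, 6 (Psmb1 to Psmb6) were lower in DFMO in all 6 classes, as were 6.10% of the 4869 genes measured in all of them; 11.0% of these genes were higher in all 6, and no member was with the totals as deposited. Among genes nearer in length and level, of 500 to 1000 coding bases and at least 100 CPM in each class, 19.5% of 307 were lower in all 6. The count of beta subunits depended on the weighting of cells. It was 6 with TMM library sizes (11.5% of genes), 5 when each cell weighed alike (5.01%), when Psmb7 was among them but Psmb1 and Psmb4 were not, 4 in cells with under 2 UMIs of 18 cell cycle genes (5.36%) and 3 after thinning to 1000 UMIs (3.47%).

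Psmb5 carries the chymotrypsin-like site and Psmb6 the caspase-like site, and both were lower. Psmb5 (ENSMUSG00000022193, mm10 chr14:54614119-54618022, minus strand) had 324 CPM in DFMO and 420 CPM in water in CD8 T-like cells (log2 ratio -0.37, -0.50 to -0.25), 338 and 418 CPM in NK-like cells (-0.31) and 431 and 493 CPM in Ptprc-low cells (-0.19). It had 326 CPM in DFMO and 365 CPM in water in monocyte/macrophage-like cells (-0.16), 313 and 394 CPM in other T-like cells (-0.33) and 332 and 378 CPM in Treg-like cells (-0.19, -0.45 to 0.07). Of the 31-base words in its transcripts 71.7% also occur in other genes, mostly in Gm3375, so its counts depend on how such reads were assigned. Psmb6 (ENSMUSG00000018286, chr11:70525367-70527858, plus strand), of which 6.24% of the words occur elsewhere, had 312 CPM in DFMO and 405 CPM in water in CD8 T-like cells (-0.37, -0.51 to -0.24), 339 and 389 CPM in NK-like cells (-0.20), 381 and 450 CPM in Ptprc-low cells (-0.24) and 288 and 359 CPM in monocyte/macrophage-like cells (-0.32). The ratio was -0.28 (290 and 352 CPM) in other T-like cells and -0.29 (271 and 332 CPM) in Treg-like cells.

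Psmb7, which carries the trypsin-like site, was not lower in every class, except when each cell weighed alike; its difference from Psmb5 and Psmb6 was not tested. It had 128 CPM in DFMO and 140 CPM in water in CD8 T-like cells (-0.12, -0.34 to 0.09), 129 and 118 CPM in NK-like cells (0.13, -0.17 to 0.44), 178 and 183 CPM in Ptprc-low cells (-0.04, -0.11 to 0.04) and 119 and 97.6 CPM in other T-like cells (0.28, -0.22 to 0.78). Monocyte/macrophage-like cells had 100.1 CPM in DFMO and 106 CPM in water (-0.09, -0.40 to 0.21), and Treg-like cells 118 and 119 CPM (-0.01, -0.47 to 0.44). All 6 of its intervals held 0. It was also the beta subunit with the fewest UMIs, 368 in DFMO and 341 in water in CD8 T-like cells.

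The beta subunits without a cutting site were lower too. Psmb3 had 612 CPM in DFMO and 780 CPM in water in CD8 T-like cells (-0.35, -0.45 to -0.26), 603 and 790 CPM in other T-like cells (-0.39, -0.59 to -0.19), 420 and 518 CPM in monocyte/macrophage-like cells (-0.30) and 707 and 837 CPM in Ptprc-low cells (-0.24). Its 6 intervals all lay below 0. Psmb2 had 378 CPM in DFMO and 462 CPM in water in other T-like cells (-0.29, -0.55 to -0.03). Psmb1 differed most between classes, with 322 CPM in DFMO and 423 CPM in water in monocyte/macrophage-like cells (-0.39, -0.56 to -0.23) and 480 and 574 CPM in Ptprc-low cells (-0.26), but 549 and 554 CPM in Treg-like cells (-0.01, -0.22 to 0.19). Psmb2 had 602 CPM in DFMO and 629 CPM in water in Ptprc-low cells (-0.06) and 348 and 429 CPM in Treg-like cells (-0.30, -0.55 to -0.05). Psmb4 had 310 CPM in DFMO and 338 CPM in water in CD8 T-like cells (-0.12) and 234 and 284 CPM in monocyte/macrophage-like cells (-0.28).

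The promoters of 3 of these genes are shown because most beta subunits were lower in DFMO in all 6 classes. Proteasome genes are also known targets of Nfe2l1 and Nfe2l2, which bind the antioxidant response element. Each sequence is the 250 bases before the start in RefSeq GRCm38.p6, given 5' to 3' on the gene's strand, from chr14:54617996-54618245 (minus strand) for Psmb5, chr11:70525107-70525356 (plus strand) for Psmb6 and chr3:94886959-94887208 (minus strand) for Psmb4. Capitals mark a match to the element's core TGACNNNGC.
Psmb5: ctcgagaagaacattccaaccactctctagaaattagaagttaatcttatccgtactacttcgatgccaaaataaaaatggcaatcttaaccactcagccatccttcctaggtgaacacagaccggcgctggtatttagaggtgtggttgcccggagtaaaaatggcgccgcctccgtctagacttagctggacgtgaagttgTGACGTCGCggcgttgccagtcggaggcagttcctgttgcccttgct
Psmb6: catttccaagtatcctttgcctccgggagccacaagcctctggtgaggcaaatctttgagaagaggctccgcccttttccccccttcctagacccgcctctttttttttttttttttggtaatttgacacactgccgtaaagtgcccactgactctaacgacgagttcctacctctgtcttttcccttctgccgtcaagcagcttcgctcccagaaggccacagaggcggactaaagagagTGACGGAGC
Psmb4: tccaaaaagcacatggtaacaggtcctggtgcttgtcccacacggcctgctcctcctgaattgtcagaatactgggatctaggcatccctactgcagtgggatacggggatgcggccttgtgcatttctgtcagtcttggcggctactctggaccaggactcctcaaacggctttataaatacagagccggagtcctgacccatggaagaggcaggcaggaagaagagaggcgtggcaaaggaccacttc
Psmb5 held TGACGTCGC, which begins 47 bases before the start, and Psmb6 held TGACGGAGC, which begins 9 bases before it, while these letters had no match in the window of Psmb4. The window of Psmb3, not shown here, had no match either. Searched on both strands over 300 bases (the 250 above and the first 50 of the transcript), the core was in 5 of 31 windows of 29 members (16.1%) and in 12.4% of 32851 windows of all genes. CCAAT was in 12 of the 31 windows (38.7%) and in 37.4% of all. The shares among the members were close to those among all genes, and a match is a run of letters, not a bound site.

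The alpha subunits, which form the gated outer rings, were lower by less. Their sum was 2380 CPM in DFMO and 2659 CPM in water in CD8 T-like cells (-0.16), 2362 and 2578 CPM in NK-like cells (-0.13), 2483 and 2753 CPM in Ptprc-low cells (-0.15), 2203 and 2360 CPM in monocyte/macrophage-like cells (-0.10) and 2412 and 2720 CPM in Treg-like cells (-0.17). In other T-like cells it was 2373 CPM in DFMO and 2501 CPM in water (-0.08, -0.18 to 0.03), and 0.01 with coarser clusters. Psma5, Psma6 and Psma7 were lower in DFMO in all 6 classes, 3 of 7 subunits where 6.10% of genes were, and 19.5% of those of 500 to 1000 coding bases and at least 100 CPM. The count was 5 with TMM library sizes (11.5%) and 1 after thinning (3.47%). It was 3, with Psma1 in place of Psma6, when each cell weighed alike (5.01%). The same 3 were lower in cells with under 2 UMIs of the 18 cell cycle genes (5.36%). Psma7 had 568 CPM in DFMO and 657 CPM in water in monocyte/macrophage-like cells (-0.21, -0.34 to -0.09) and 444 and 503 CPM in CD8 T-like cells (-0.18, -0.30 to -0.07). Of the words of Psma5, 58.7% occur in other genes.

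Psma3, another alpha subunit, had ratios on both sides of 0 in the T cell classes, a difference that was not tested. It had 405 CPM in DFMO and 557 CPM in water in Treg-like cells (-0.46, -0.68 to -0.23), against 505 CPM in DFMO and 428 CPM in water in other T-like cells (0.24, 0.00 to 0.48). Psma1 was lower in Treg-like cells (186 CPM in DFMO and 243 CPM in water, -0.39, -0.73 to -0.05) and in CD8 T-like cells (209 and 260 CPM, -0.31, -0.48 to -0.15), and near level in NK-like cells (224 and 237 CPM, -0.08). Psma4 had 286 CPM in DFMO and 344 CPM in water in CD8 T-like cells (-0.27) and 280 and 275 CPM in monocyte/macrophage-like cells (0.03). Psma2 had 497 CPM in DFMO and 605 CPM in water in other T-like cells (-0.28, -0.51 to -0.06) but 528 and 489 CPM in Treg-like cells (0.11, -0.11 to 0.33).

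The testis subunit Psma8 was all but undetected. It had 1 UMI over all kept DFMO cells and 15 UMIs over all kept water cells, of which 9 lay in monocyte/macrophage-like cells and 3 in Ptprc-low cells.

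The 6 ATPases, which form the ring that unfolds substrates, showed no common direction. Their sum was 900 CPM in DFMO and 891 CPM in water in CD8 T-like cells (0.02, -0.07 to 0.10), 989 and 985 CPM in Ptprc-low cells (0.01, -0.03 to 0.04) and 910 and 908 CPM in Treg-like cells (0.00). In NK-like cells it was 857 CPM in DFMO and 881 CPM in water (-0.04), in monocyte/macrophage-like cells 638 and 674 CPM (-0.08), and in other T-like cells 920 and 816 CPM (0.17, 0.00 to 0.35). The ratio changed sign with the processing in every class except monocyte/macrophage-like cells, where it was -0.14 to -0.01. Of the 6 ATPases, 0 were lower in all 6 classes, but Psmc2 was when each cell weighed alike (5.01% of genes). Psmc4 had 164 CPM in DFMO and 149 CPM in water in CD8 T-like cells (0.15, -0.05 to 0.35), Psmc6 had 110 and 89.9 CPM in monocyte/macrophage-like cells (0.29, -0.01 to 0.58), and Psmc2 had 129 and 160 CPM in Treg-like cells (-0.32, -0.73 to 0.10). Psmc1, Psmc3 and Psmc5 ranged from -0.17 to 0.20 over the 6 classes. An interval clear of 0 was found among the 36 ratios of single ATPases for Psmc5 in Ptprc-low cells alone (211 CPM in DFMO and 221 CPM in water, -0.07), where it ended just below 0.

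The non-ATPase subunits of the cap were mixed as well. Their sum was 1807 CPM in DFMO and 1943 CPM in water in Ptprc-low cells (-0.10, -0.13 to -0.08), 1616 and 1672 CPM in CD8 T-like cells (-0.05) and 1605 and 1657 CPM in Treg-like cells (-0.05). It was 1592 CPM in DFMO and 1541 CPM in water in NK-like cells (0.05), 1406 and 1386 CPM in monocyte/macrophage-like cells (0.02) and 1620 and 1478 CPM in other T-like cells (0.13, 0.00 to 0.26). Of the 11, 0 were lower or higher in all 6 classes. Under the alternatives, Psmd6 and Psmd7 were lower in all of them with TMM library sizes, Psmd7 was lower and Psmd1 higher when each cell weighed alike, Psmd12 was lower in cells with under 2 UMIs of the cell cycle genes, and Psmd2 was higher after thinning.

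Psmd1 and Psmd2, the large scaffold subunits of the cap base, were the highest-ranked members in other T-like cells. Psmd1 (ENSMUSG00000026229, chr1:86064387-86139151, plus strand) had 90.0 CPM in DFMO and 40.8 CPM in water there (1.14, 0.47 to 1.82), from 44 and 36 UMIs. Psmd2 (chr16:20651652-20663414, plus strand) had 139 CPM in DFMO and 74.9 CPM in water (0.89, with a lower bound of 0.38), from 68 and 66 UMIs. Both were also higher in DFMO in NK-like cells, where Psmd1 had 82.7 CPM in DFMO and 61.4 CPM in water (0.43, 0.03 to 0.83) and Psmd2 had 135 and 103 CPM (0.39, 0.08 to 0.70). In Ptprc-low cells, with far more UMIs, Psmd1 had 110 CPM in DFMO and 96.7 CPM in water (0.18, 0.08 to 0.28). Psmd1 was lower in monocyte/macrophage-like cells (55.1 CPM in DFMO and 60.2 CPM in water, -0.13, -0.55 to 0.27), and Psmd2 in Treg-like cells (111 and 125 CPM, -0.17, -0.63 to 0.29). Of the words of Psmd2, 31.6% occur in other genes.

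Psmd3, a lid scaffold subunit, was past 1.5-fold in Treg-like cells, with 102 CPM in DFMO and 56.2 CPM in water (0.87, 0.28 to 1.46) from 70 and 40 UMIs, and within 0.11 of 0 in the other 5 classes. Psmd4, a ubiquitin receptor of the cap, had 214 CPM in DFMO and 243 CPM in water in Ptprc-low cells (-0.19, -0.25 to -0.12) and 215 and 207 CPM in CD8 T-like cells (0.05). Psmd14, the deubiquitinase that strips chains from substrates, was close to level in every class, from 111 CPM in DFMO and 116 CPM in water in Ptprc-low cells (-0.06) to 129 and 117 CPM in other T-like cells (0.14). Its partner Psmd7 had 273 CPM in DFMO and 321 CPM in water in Ptprc-low cells (-0.24, -0.30 to -0.18) and 135 and 130 CPM in NK-like cells (0.05). Psmd8 had 221 CPM in DFMO and 265 CPM in water in NK-like cells (-0.26, -0.49 to -0.04). The remaining lid subunits Psmd6, Psmd11, Psmd12 and Psmd13 ranged from -0.18 to 0.44, the highest being Psmd11 in other T-like cells (143 CPM in DFMO and 106 CPM in water, -0.03 to 0.90).

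The cap chaperones were scarce and their intervals wide. Psmd5 had 59.3 CPM in DFMO and 36.3 CPM in water in other T-like cells (0.71, -0.07 to 1.48) from 29 and 32 UMIs, and 37.9 and 45.6 CPM in NK-like cells (-0.27, -0.82 to 0.27). Psmd9 had 82.6 CPM in DFMO and 90.8 CPM in water in Ptprc-low cells (-0.14, -0.25 to -0.03), and Psmd10, a chaperone also known as gankyrin, had 29.0 and 26.7 CPM there (0.12, -0.08 to 0.31). In these 3 genes the Psmd9 value was the one whose interval did not hold 0.

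Further high ratios in the cap rested on wide intervals, and all of those given next held 0. Psmd1 had 73.1 CPM in DFMO and 62.6 CPM in water in CD8 T-like cells (0.22, -0.08 to 0.53), and Psmd5 had 48.1 and 40.1 CPM there (0.26, -0.12 to 0.65). Psmd9 had 74.9 CPM in DFMO and 59.9 CPM in water in NK-like cells (0.32, -0.09 to 0.74). Psmd2 had 159 CPM in DFMO and 152 CPM in water in Ptprc-low cells (0.07, -0.01 to 0.15) and 96.5 and 81.6 CPM in monocyte/macrophage-like cells (0.24, -0.08 to 0.55). Psmd13 had 184 CPM in DFMO and 160 CPM in water in Treg-like cells (0.20, -0.17 to 0.58). Over all kept cells, which differ in makeup between the libraries, Psmd10 (0.30), Psmd5 (0.20) and Psmc3 (0.09) had the highest ratios, and Psmd7 was among the lowest (-0.44), with 193 CPM in DFMO and 262 CPM in water.

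Psmc3ip, with few UMIs, had wide intervals. In CD8 T-like cells it had 16.0 CPM in DFMO and 30.7 CPM in water (-0.94, -1.50 to -0.39) from 46 and 75 UMIs, the single member past 1.5-fold lower. In Treg-like cells it had 33.6 CPM in DFMO and 21.1 CPM in water (0.67, -0.33 to 1.72), from 23 and 15 UMIs. In Ptprc-low cells it had 25.9 CPM in DFMO and 31.1 CPM in water (-0.26, -0.46 to -0.07), which became 0.04 when each cell weighed alike. Monocyte/macrophage-like cells had 2 UMIs in DFMO and 19 in water, too few to compare.

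Coding length moved with the ratios. Over all genes of at least 100 CPM, the median log2 ratio in CD8 T-like cells was -0.13 for coding sequences under 500 bases, -0.10 from 500 to 1000, 0.03 from 1000 to 2000 and 0.10 from 2000 on, and the other 5 classes had the same order. The 20S subunits lie between 603 bases (Psmb2) and 831 bases (Psmb7), the ATPases between 1167 and 1425, and Psmd1 and Psmd2 have 2859 and 2724. Less the median of its length bin, the median beta subunit was at -0.03 in CD8 T-like, -0.09 in Ptprc-low, -0.16 in NK-like, -0.17 in Treg-like, -0.25 in monocyte/macrophage-like and -0.26 in other T-like cells. The alpha subunits were then between -0.16 and -0.04, and the ATPases between -0.20 and 0.06. In CD8 T-like cells the median alpha subunit was at -0.08, lower than the median beta subunit by this measure. The non-ATPase subunits of 1000 to 2000 bases were lower than the beta subunits in CD8 T-like (-0.11), Ptprc-low (-0.15) and Treg-like cells (-0.23). They were above the beta subunits in NK-like (-0.02), other T-like (-0.03) and monocyte/macrophage-like cells (0.00). Among genes of the 500 to 1000 bin with at least 100 CPM in each class, 60 of 307 (19.5%) were lower in DFMO in all 6 classes, and 9 of the 15 members there were. In fibroblast-like cells, less the median of the length bin, the median beta subunit was at 0.07 and the median alpha subunit at 0.02. The ATPases were at 0.23 there, and the non-ATPase subunits of 1000 to 2000 bases at -0.04. The part of length in the ratios was not tested.

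**Figure D3:**
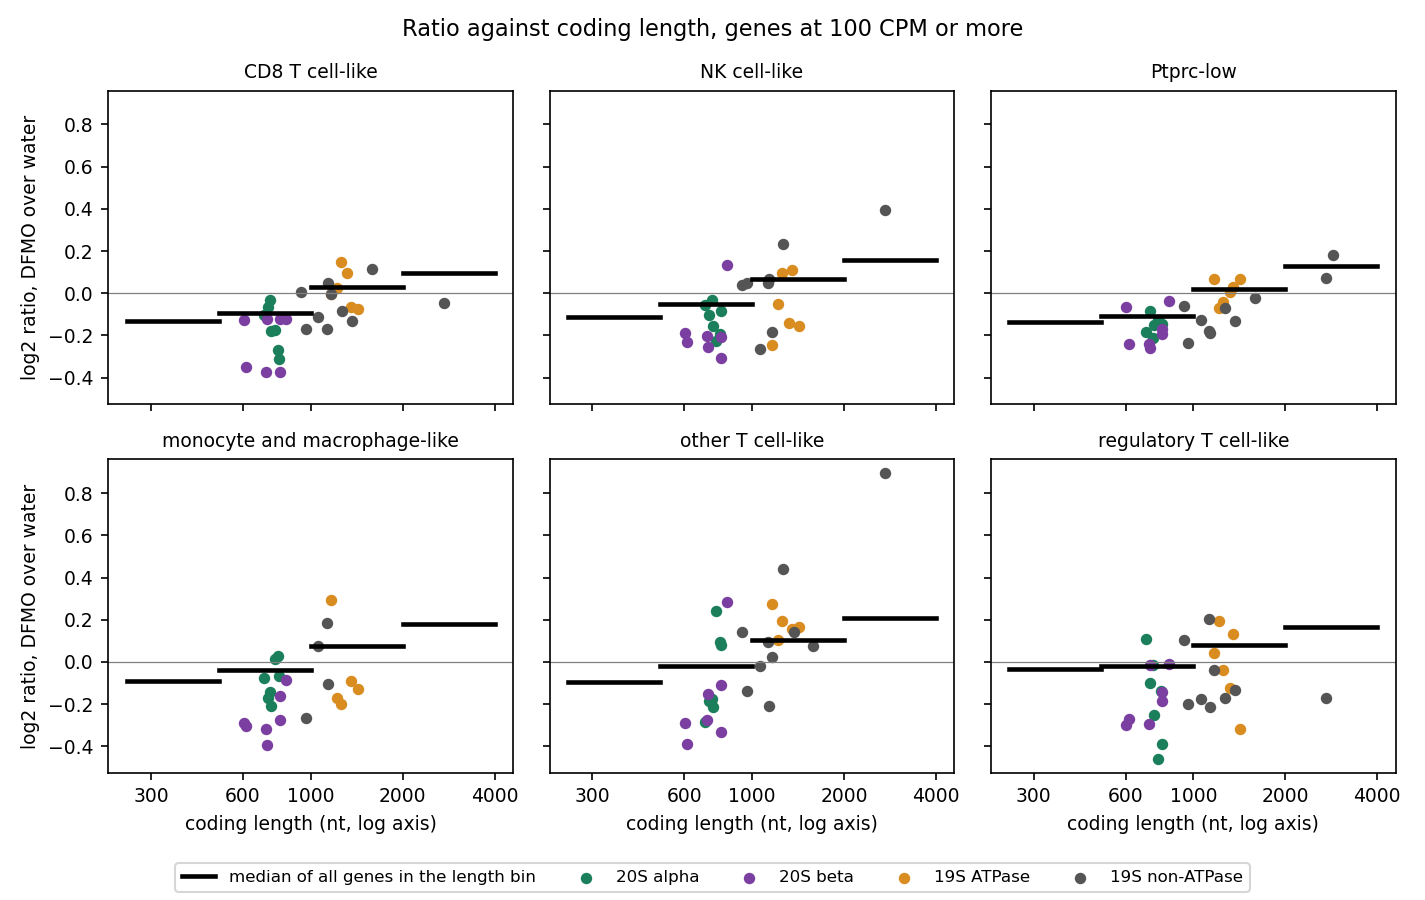
Log2 ratio of DFMO over water (vertical axis) against coding length in bases (horizontal log axis) in 6 panels, 1 per class, with members coloured by role and the medians of all genes in 4 length bins as lines. The medians climb with length in all panels, in CD8 T-like cells over -0.13, -0.10, 0.03 and 0.10, and most of the short beta subunits lie at or below them.

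Each constitutive catalytic subunit competes for its place with an inducible one, so the inducible share of each pair was set beside it. The inducible partners outnumbered the constitutive ones in every class with at least 50 cells, except Psmb9 in Ptprc-low cells of water. Psmb8 made up 81.9% of Psmb8 plus Psmb5 UMIs in DFMO and 80.8% in water in CD8 T-like cells, 85.5% and 84.4% in other T-like cells and 75.7% and 77.2% in monocyte/macrophage-like cells. Psmb9 was less dominant over Psmb6, with 74.9% in DFMO and 75.2% in water in Treg-like, 68.3% and 67.1% in CD8 T-like, 61.3% and 59.9% in monocyte/macrophage-like and 60.0% and 60.9% in NK-like cells. The share of Psmb10 over Psmb7 was 73.6% in DFMO and 70.5% in water in CD8 T-like, 73.4% and 76.2% in Treg-like, 83.4% and 86.7% in other T-like and 83.3% and 85.0% in fibroblast-like cells. The antigen-presenting migratory dendritic cell-like cells of water had the highest Psmb8 and Psmb9 shares, 88.1% and 79.8%. B-like cells, whose RNA was also found in other classes of the DFMO library, had 867 CPM of Psmb8 there.

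Ptprc-low cells had the lowest Psmb9 share and the one that differed between the libraries. It was 53.3% in DFMO (52.3% to 54.4%) and 47.2% in water (46.6% to 47.7%), with the Psmb8 share at 78.4% and 75.4% and the Psmb10 share at 74.5% and 72.9%. The Psmb9 share was higher in DFMO in each of the 4 Ptprc-low clusters, at 53.1% against 46.8% in water in the dividing cluster, 57.7% against 52.5% in the hypoxia cluster, and 48.3% against 44.1% and 56.9% against 42.7% in the others. In the other 5 classes the intervals of the libraries overlapped for Psmb9. With the totals as deposited, the inducible genes themselves were higher in DFMO in Ptprc-low cells, with Psmb8 at 1566 CPM in DFMO, against 1513 CPM in water (0.05, 0.02 to 0.08), Psmb9 at 435 and 402 CPM (0.11, 0.07 to 0.16) and Psmb10 at 521 and 492 CPM (0.08, 0.04 to 0.13). The median of all genes in this class was 0.05 as well. TMM library sizes shifted every ratio of the class by -0.058, more than the Psmb8 ratio and the lower bound for Psmb10. In CD8 T-like cells Psmb8 had 1462 CPM in DFMO and 1762 CPM in water (-0.27) and Psmb9 674 and 824 CPM (-0.29), so both partners of these pairs were lower there and the share barely moved. The clusters of this class were unlike in the 2 libraries. The median ratio of the 3 inducible genes was -0.27 in the class, -0.12 in the Gzmf, Pdcd1 and Lag3 cluster and -0.21 in the cycling cluster.

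**Figure D4:**
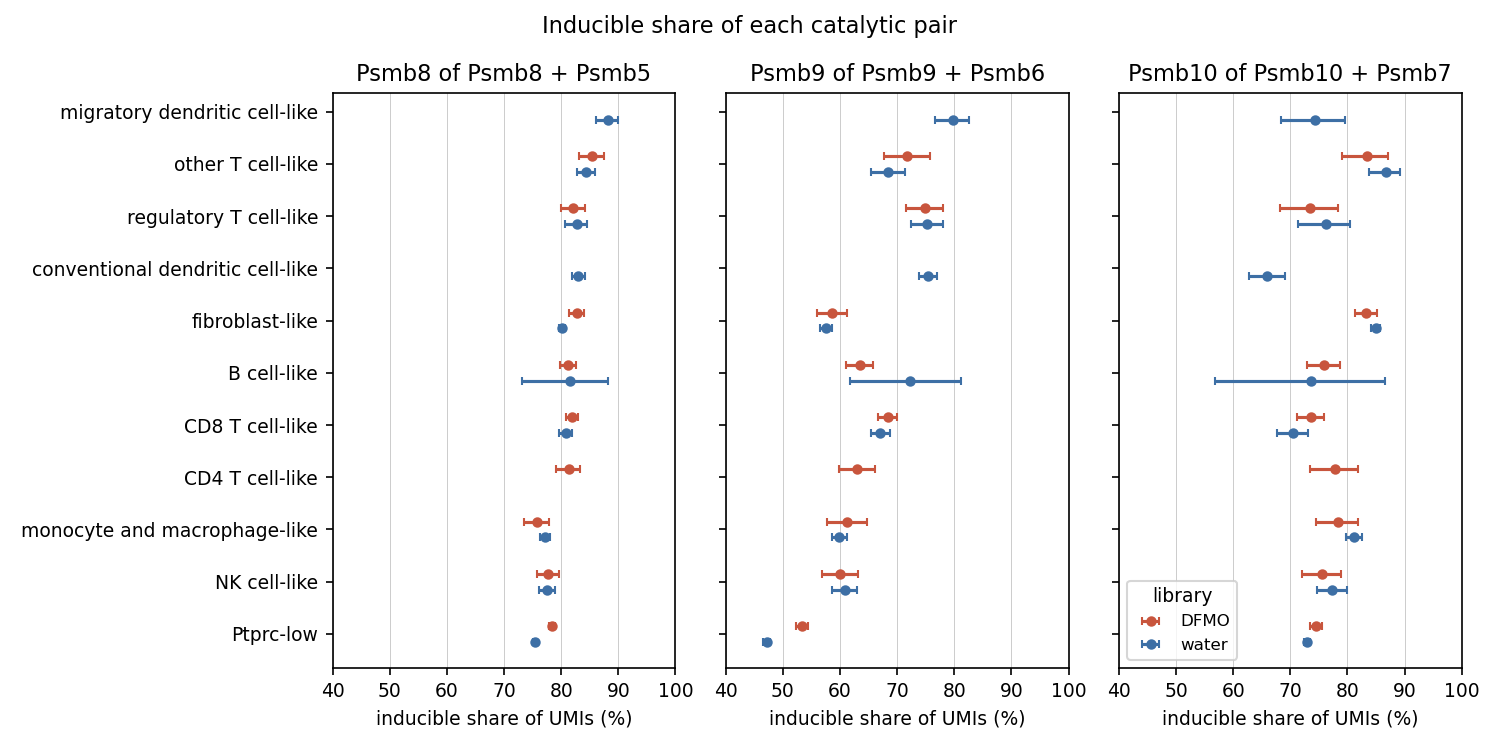
Inducible share in percent of the UMIs of each catalytic pair (Psmb8 with Psmb5, Psmb9 with Psmb6, Psmb10 with Psmb7) by cell class, DFMO and water as separate points with 95% exact binomial intervals. For Psmb9 the Ptprc-low cells are lowest, at 53.3% in DFMO and 47.2% in water, and the libraries lie apart there.

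The helpers of the proteasome did not move as a block. Of the activators and inhibitor (Psme1, Psme2, Psme3, Psme4 and Psmf1), 3 of 5 were higher in DFMO in CD8 T-like cells and 1 of 5 in Ptprc-low cells, where Psme2, a part of the interferon-induced activator, had 1224 CPM in DFMO and 1114 CPM in water (0.14, 0.11 to 0.17). In Treg-like cells Psme2 had 1163 CPM in DFMO and 1470 CPM in water (-0.34, -0.47 to -0.20). Of the 5 core assembly chaperones, 0 were higher in Ptprc-low, 4 in CD8 T-like, 2 each in NK-like and monocyte/macrophage-like, 3 in other T-like and 1 in Treg-like cells. Over all genes, 57.7% were higher in Ptprc-low, 56.9% in CD8 T-like, 54.5% in NK-like, 54.2% in monocyte/macrophage-like, 57.4% in other T-like and 58.8% in Treg-like cells. Pomp, which matures the 20S core, was lower in 5 classes, with 440 CPM in DFMO and 495 CPM in water in CD8 T-like cells (-0.17), 515 and 634 CPM in monocyte/macrophage-like cells (-0.30), 494 and 551 CPM in NK-like cells (-0.16), 455 and 555 CPM in Treg-like cells (-0.29) and 492 and 530 CPM in Ptprc-low cells (-0.11). In other T-like cells it had 503 CPM in DFMO and 481 CPM in water (0.06, -0.17 to 0.29). Genes of at least 100 CPM with under 500 coding bases had medians below 0 as well. These were -0.13 in CD8 T-like and Ptprc-low, -0.11 in NK-like, -0.09 in monocyte/macrophage-like and -0.03 in Treg-like cells. The part of length in the Pomp ratios was not tested. Of the other cap parts, 2 to 4 of 6 or 7 measured were higher in each class; among them the ubiquitin receptor Adrm1 had 131 CPM in DFMO and 100 CPM in water in CD8 T-like cells (0.39, 0.15 to 0.62).

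Nfe2l1 and Nfe2l2, factors that drive proteasome genes, were higher in DFMO in Ptprc-low cells, where the beta subunits were lower. Nfe2l1 had 146 CPM in DFMO and 112 CPM in water there (0.39, 0.30 to 0.47), and Nfe2l2 had 80.8 and 61.4 CPM (0.40, 0.28 to 0.51). Nfe2l2 also had 39.7 CPM in DFMO and 18.0 CPM in water in CD8 T-like cells (1.14, 0.63 to 1.68), but 3 of the 5 genes of this list were lower there (list median -0.11). In Ptprc-low cells 3 of 5 were higher (median 0.03), and in NK-like cells 5 of 5 were lower (-0.30). Of the ubiquitin and shuttle genes, 9 of 11 were higher in Ptprc-low, 8 of 11 in CD8 T-like, 7 of 11 in NK-like, 6 of 11 in monocyte/macrophage-like, 5 of 9 measured in other T-like and 6 of 9 in Treg-like cells, to be read against the shares of all genes given above. The list median in NK-like cells was 0.22, beside 0.04 for all genes.

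The genes of ornithine decarboxylase turnover differed by class. Odc1, which encodes the enzyme that DFMO inhibits, had 707 CPM in DFMO and 1244 CPM in water in Treg-like cells (-0.82, -0.98 to -0.65), but 235 and 142 CPM in other T-like cells (0.73, 0.35 to 1.11) and 59.7 and 41.2 CPM in monocyte/macrophage-like cells (0.54, 0.12 to 0.94). Oaz1, the antizyme that carries it to the proteasome, had 1874 CPM in DFMO and 1597 CPM in water in CD8 T-like cells (0.23, 0.17 to 0.29) and 1722 and 1718 CPM in Ptprc-low cells (0.00).

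In 4 classes, cells rich in RNA of cell cycle genes had a higher proteasome level than the other cells, which also differed in cluster. A first call, at least 2 UMIs of 18 such genes after thinning to 1000 UMIs, did not separate cycling cells in T and B cells: it took 54.1% of the naive-gene CD8 T-like cluster in DFMO, where Mki67 had 2 UMIs, and 33.8% of the Gzmf, Pdcd1 and Lag3 cluster, and 41.1% of CD4 T-like and 26.4% of B-like cells. Without Stmn1, Tubb5 and Hmgb2 the same call took 0 cells of the naive-gene cluster, 7.51% of the Gzmf cluster and 98.6% of the dividing CD8 T-like cluster in DFMO. This 15-gene call, chosen after seeing the data, is used here, and it left at least 50 cells on each side in 4 classes. In CD8 T-like cells of DFMO, 88 called cells had 9092 CPM of the members and 638 others had 7180 CPM (log2 ratio 0.34, 0.30 to 0.38), and in water 166 called cells had 9166 CPM and 373 others had 8084 CPM (0.18, 0.14 to 0.22). Of the 35 measured members, 32 in DFMO and 31 in water were higher in called cells, where 42.5% and 46.7% of all genes were. Ptprc-low cells had 9136 CPM in called and 8230 CPM in other cells of DFMO (0.15), and 9873 and 9031 CPM in water (0.13), with 31 and 32 of 35 members higher, against 56.0% and 50.7% of all genes. In water, NK-like cells had 8624 CPM in called and 7989 CPM in other cells (0.11), and monocyte/macrophage-like cells 7479 and 6935 CPM (0.11). Called cells were deeper in CD8 T-like cells, with a median of 9083.5 UMIs against 2476 in other cells of DFMO and 6532 against 3089 in water. By the first call, of 18 genes, the medians were 6806 against 3388 in NK-like and 4537 against 4298 in monocyte/macrophage-like cells of water. In Ptprc-low cells they were 18221 against 19173 in DFMO and 17368 against 15047 in water. Called and other cells also differed in cluster. Of the 88 called CD8 T-like cells of DFMO, 72 lay in the dividing cluster. The naive-gene cluster held 440 of the 638 others in DFMO and 42 of 373 in water. Among Ptprc-low cells of DFMO, the 15-gene call took 82.7% of the dividing cluster and 3.37% of the hypoxia cluster. It took 19.7% of the further cluster with 9665 CPM, above the 9059 CPM of the dividing one. The parts of depth and of cluster makeup in these ratios were not tested.

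The ATPases were among the groups that were higher in called cells. Their log2 ratio was 0.55 in DFMO and 0.39 in water in CD8 T-like cells, and 0.25 and 0.20 in Ptprc-low cells, beside 0.31 and 0.13 for the beta subunits of CD8 T-like cells and 0.16 and 0.15 for those of Ptprc-low cells. Psmc3ip, the recombination factor, had the highest ratios, 1.59 in DFMO and 2.75 in water in CD8 T-like cells and 1.48 and 1.84 in Ptprc-low cells. Psmd1 was at 1.08 in DFMO and 0.35 in water in CD8 T-like cells. Psmb1 was close to level there, at -0.01 and -0.07, and Psmd8 was lower in called Ptprc-low cells, at -0.37 in DFMO and -0.39 in water. In cells with under 2 UMIs of the 18 genes, the ratio of DFMO over water of the members' sum was -0.06 in NK-like cells, against -0.11 in all NK-like cells, and -0.15 in Ptprc-low cells, against -0.14 in all of them.

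**Figure D5:**
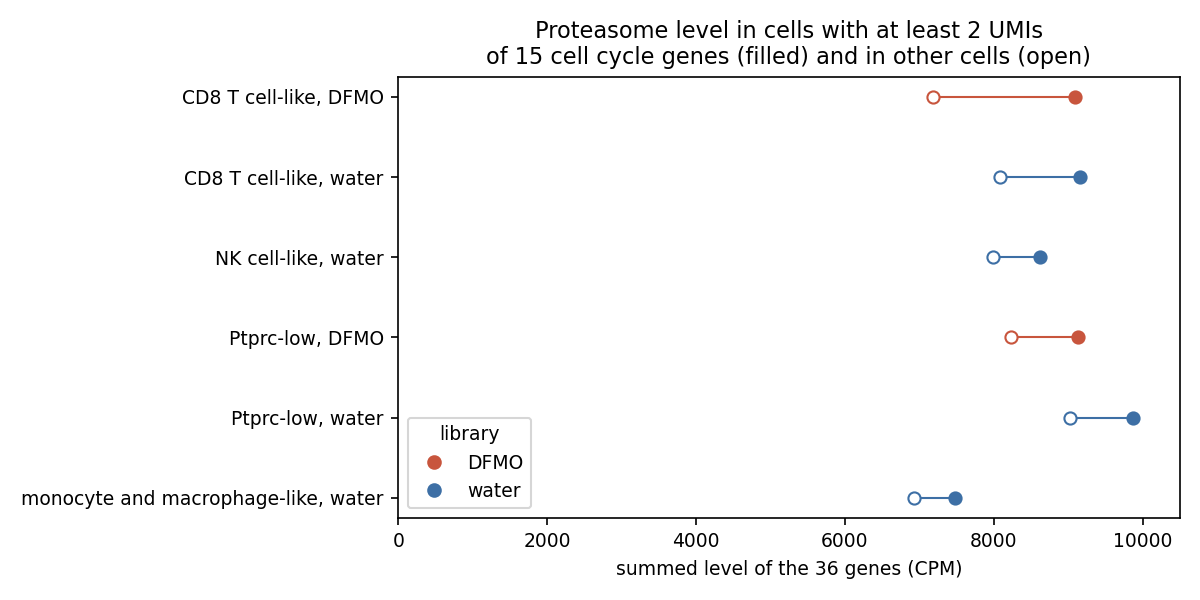
Summed level of the members in CPM (horizontal axis) in cells with at least 2 UMIs of 15 cell cycle genes (filled) and in the other cells (open) of each class and library, joined by a line. Filled points lie right of open ones in every row, most in CD8 T-like cells of DFMO (9092 and 7180 CPM).

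Genes whose pattern over the classes was most like that of the members were sought among 6480 genes, over 19 sums of 1 class in 1 library on the log2(CPM + 1) scale. The closest outside the list were Prelid3b, Ppa1, Ube2m and 1810037I17Rik, each with Pearson's r of 0.91, and Cks1b, a cell cycle kinase subunit, at 0.89. They were followed by Ncbp2, Gins2 and Mrpl20 at 0.87 each, and by Chchd1 and Snrpd1 at 0.86 each. The median r of all genes was 0.09 and 0.941% of them passed 0.8. Within the list, Psmb4 followed the sum of the other members most closely (0.97), ahead of Psmb5 (0.91) and Psmb3 (0.90), while Psmd11 (-0.16) and Psmd10 (-0.25) did not follow it. The sums share libraries and depth, so these values are a description.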

How the data were processed

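The deposited file is a matrix of UMI counts per gene and cell that the authors made; per the submitters' processing notes the tools were Cell Ranger 3.02 and Scanpy 1.4.4 on mm10, and how each was used is not given in the sources used here. The counts are whole numbers and were not normalized. The depth was 23383042 UMIs over the kept DFMO cells and 58368594 over the kept water cells. Cells with at least 200 genes were kept, and Scrublet in scanpy 1.11.5 (Python 3.11.15) marked 51 cells of DFMO and 97 of water as doublets, which were removed. Counts were scaled to 10000 per cell, and 2000 variable genes, 30 principal components, 15 neighbours and Leiden clustering (leidenalg 0.10.2, resolution 1.0) gave 23 clusters. A cluster was named by markers, with the naming rule set after the clusters were seen, and clusters without a clear name are not analysed here. UMI counts were summed per class and library and given as CPM with exact Poisson intervals; ratios of DFMO over water have exact conditional binomial intervals, and shares exact Clopper-Pearson intervals. TMM used edgeR 4.0.16. The calculation of ratios was tested on simulated data. Named by rule were Psmb5, Psmb6 and Psmb7 in every class, the 3 highest and 3 lowest ratios of each class and those past 1.5-fold among members with at least 100 UMIs, members under 30 UMIs in all, the 3 most and 3 least even members, the 10 genes most alike and the pathway lists; other values were chosen by role after they were seen. Coding lengths and coordinates are from GENCODE vM21 (mm10), which matched 17743 of 17775 gene IDs. Values of some genes of the lists are not reported here. The members and lists were chosen with earlier results of these data known.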

Additional observations from a re-analysis of the deposited data

Results flagged for a closer look

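Some genes had counting intervals on opposite sides of 0 in a pair of classes, with 1 library per group; the difference between the classes was not tested, and no explanation was weighed. Psma3 was higher in DFMO in other T-like cells (log2 ratio 0.24) and lower in CD8 T-like (-0.18), NK-like (-0.23), Ptprc-low (-0.13) and Treg-like cells (-0.46). The inducible subunits had such intervals too. Psmb8 had a log2 ratio of 0.050 in Ptprc-low cells, against -0.27 in CD8 T-like, -0.29 in NK-like, -0.28 in monocyte/macrophage-like, -0.21 in other T-like and -0.25 in Treg-like cells. Psmb9 had 0.11 in Ptprc-low cells, against -0.29 in CD8 T-like, -0.25 in NK-like, -0.24 in monocyte/macrophage-like and -0.32 in Treg-like cells. Psmb10 had 0.082 in Ptprc-low and -0.34 in monocyte/macrophage-like cells, but was not lower in CD8 T-like cells, with 357 CPM in DFMO and 333 CPM in water. TMM library sizes shifted every Ptprc-low ratio by -0.058, more than the Psmb8 ratio there and the lower bound for Psmb10. The opposite sides for Psmb8 and Psmb10 thus depend on the library size chosen.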

How the results depend on the processing

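No paired analysis was possible because neither group had a replicate, and for that reason none could be left out. The sum of the members stayed lower in DFMO in all alternatives of CD8 T-like (-0.21 to -0.07), NK-like (-0.16 to -0.06), Ptprc-low (-0.19 to -0.09), monocyte/macrophage-like (-0.24 to -0.10) and Treg-like cells (-0.22 to -0.01), but not of other T-like cells (-0.19 to 0.03). The sums of single subcomplexes and the counts over the 6 classes under these settings, the receptor-free totals and the set without the naive-gene cluster were chosen after seeing the data. The cause of each change below was not tested.

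With TMM library sizes the sums were -0.19 (CD8 T-like), -0.16 (NK-like), -0.19 (Ptprc-low), -0.19 (monocyte/macrophage-like), -0.19 (other T-like), -0.22 (Treg-like) and -0.23 (all kept cells), and the medians -0.15 (CD8 T-like), -0.19 (Ptprc-low) and -0.22 (Treg-like). With thinned cells the sums were -0.21 (CD8 T-like), -0.087 (Ptprc-low), -0.24 (monocyte/macrophage-like), -0.19 (other T-like), -0.057 (Treg-like) and -0.30 (all kept cells), and the medians -0.16, -0.060, -0.20, -0.19, 0.045 and -0.21 in that order, so the Treg-like median reversed. With each cell weighing alike the sums were -0.18 (CD8 T-like), -0.12 (Ptprc-low), -0.13 (other T-like), -0.034 (Treg-like) and -0.29 (all kept cells, median -0.21), and Psmc3ip in Ptprc-low cells reversed to 0.044. In cells with under 2 UMIs of the 18 cell cycle genes the sums were -0.062 (NK-like), -0.15 (Ptprc-low) and -0.19 (all kept cells), and the Treg-like median was -0.23. With coarser clusters (resolution 0.5) the CD8 T-like sum was -0.20 and its median -0.16, and the other T-like sum reversed to 0.034; with finer ones (2.0) the other T-like sum was -0.18. Without the naive-gene cluster the CD8 T-like sum was -0.074 and its median -0.034. In Treg-like cells the sum was -0.012 and the median -0.0064 with at least 500 genes per cell, and -0.016 and -0.0082 with doublets kept.

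Levels moved when each cell weighed alike, to 6956 CPM in DFMO and 7904 CPM in water (CD8 T-like), 7294 and 7877 (NK-like), 8341 and 9062 (Ptprc-low), 6211 and 6656 (monocyte/macrophage-like), 6888 and 7545 (other T-like) and 6969 and 7138 (Treg-like), to 5265 (B-like, DFMO), and in water to 8388 (conventional dendritic cell-like), 7449 (fibroblast-like) and 6842 (migratory dendritic cell-like). With doublets kept they were 7542 in DFMO and 8425 in water (CD8 T-like) and 8158 (Treg-like, DFMO); without receptor segments in the total, B-like cells of DFMO had 5601. The inducible share over the 3 pairs was 78.7% in DFMO and 77.0% in water (CD8 T-like), 83.5% and 82.1% (other T-like), and in water 68.8% (Ptprc-low), 74.0% (monocyte/macrophage-like) and 82.9% (Treg-like) with each cell weighing alike, and 77.8% in DFMO and 76.9% in water (CD8 T-like) with doublets kept.

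For the 18-gene call at 2 UMIs, called over other cells gave 0.24 in DFMO and 0.20 in water in CD8 T-like and 0.17 and 0.14 in Ptprc-low cells. With at least 1 UMI the ratio was 0.057 (B-like, DFMO), -0.074 (CD4 T-like, DFMO), 0.11 (NK-like, water), 0.13 (Ptprc-low, DFMO), 0.18 (all kept, DFMO) and 0.19 (all kept, water). With at least 3 UMIs it was 0.23 (B-like, DFMO), 0.29 (CD8 T-like, DFMO), 0.30 (all kept, DFMO), 0.073 (fibroblast-like, water) and 0.11 (monocyte/macrophage-like, water). Without Stmn1, Tubb5 and Hmgb2 in the list it was 0.34 (CD8 T-like, DFMO), 0.11 (NK-like, water), 0.32 (all kept, DFMO) and 0.11 (monocyte/macrophage-like, water).

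Of the values of single named members, 291 stayed, 15 moved and 1 reversed. Not run were other T-like cells with doublets kept or with at least 500 genes, and Treg-like cells at resolution 0.5. Under these settings no cell of the DFMO or of the water library bore that class name, so these classes depend on the clustering. Some cycling comparisons were not run for want of cells. Single members with few UMIs limit what can be seen: Psmd1 in other T-like cells rested on 44 UMIs in DFMO and 36 in water.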

Other observations

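The difference between the libraries was not the same within each class. The cycling CD8 T-like cluster had 9154 CPM of the members in DFMO and 8989 CPM in water (log2 ratio 0.03, -0.02 to 0.07), with the beta subunits at 3109 and 3222 CPM (-0.05, -0.13 to 0.03) and the ATPases at 1183 and 1041 CPM (0.19, 0.05 to 0.32). The Gzmf, Pdcd1 and Lag3 cluster had 7479 CPM in DFMO and 8375 CPM in water (-0.16, -0.20 to -0.12), with the beta subunits at 2626 and 3116 CPM (-0.25, -0.32 to -0.18). Among monocyte/macrophage-like cells the C1q and Mmp12 cluster had beta subunits at 1634 CPM in DFMO, against 2185 CPM in water (-0.42, -0.55 to -0.29). The difference between these clusters was not tested.

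Fibroblast-like cells had more ATPase RNA in the DFMO library, 908 CPM against 774 CPM in water (0.23, 0.15 to 0.31), from 97 cells in DFMO and 805 in water, with the beta subunits at 2876 and 2976 CPM. The genes whose levels ran most opposite to the members over the 19 sums were Klhl24 (Pearson's r -0.92), Jun (-0.90) and Sh3bp5 (-0.86). Jun is an immediate early transcription factor.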
